A study of Mus musculus with 8 samples.

Results

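The genes described here encode the nuclear subunits of the mitochondrial respiratory chain and ATP synthase, with the complex I assembly factors that share their name stem. They were taken from a mouse whole-genome array by the gene name printed beside each probe: names beginning with Nduf, Sdha to Sdhd, Uqcr, Cox4 to Cox8, or Atp5. There were 92 such names among 27376 on the array, and 88 of them entered the 15459 genes tested. A gene was tested if, for some treatment, its probe was called well above background at 12 h and at 24 h alike, and the brightest such probe stood for it. All 88 were well above background on all 8 arrays, and no spot of them was saturated. The 88 were grouped by name, and Ndufa4, since assigned to complex IV, was kept with complex I. This gave 37 complex I subunits, 7 complex I assembly factors, 4 complex II subunits, 8 complex III subunits, 14 complex IV subunits and 15 complex V subunits. Another 3 carried an Atp5 name without being a subunit: Atp5s and Atp5sl, now named Dmac2l and Dmac2, and the pseudogene Atp5c1-ps.

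Electrons from NADH enter the chain at complex I and those from succinate at complex II. Complex III passes them to cytochrome c, complex IV passes them to oxygen, and ATP synthase, or complex V, uses the proton gradient that the chain builds. Macrophages activated by IL-4 or IL-13 are known for a reliance on oxidative phosphorylation, whereas macrophages activated by bacterial products lean on glycolysis. Most subunits are encoded in the nucleus, and several complex IV subunits exist as an isoform of broad expression and an isoform of heart and skeletal muscle.

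The mouse line RAW264.7, which resembles macrophages, was grown in medium with serum and left untreated or given IL-13 (interleukin-13), ATRA (all-trans retinoic acid), or the 2 agents together. Each of the 4 treatments was harvested at 12 h and at 24 h, with 1 single-colour array for each treatment and time. In the labels, cells without IL-13 are unpolarized, those with IL-13 alone are M2 macrophages, and M2 polarization is called suppressed where both agents were given. No dose and no vehicle is named. The comparison asked of these genes is whether the complexes differed in RNA level between the treatments.

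All results are from 1 cell line, and the labels do not say whether the 2 arrays of a treatment came from separate experiments. With 1 array for each treatment and time, the tests take their error from how treatment differences vary between the 2 times. That spread mixes technical variation with any real change of a treatment difference with time. It may hold no variation between experiments. The 12 h arrays lay on 1 slide and the 24 h arrays on another, so a difference between times cannot be told apart from one between slides. Macrophage genes such as Cd68, Csf1r and Lyz2 were well above background on all 8 arrays, while the epithelial gene Epcam, the endothelial gene Pecam1 and the muscle genes Myh6 and Ckm were on none. The agents left their known marks. Irf4, an IL-13 target, rose by 3.41 on the log2 scale with IL-13 (limma, adjusted p = 0.00589), and Tgm2, a retinoid target, rose by 4.50 with ATRA (adjusted p = 0.0177). The 75th percentile of the processed signal ran from 431 on the 12 h IL-13 array to 713 on the 24 h IL-13 array, and those arrays also had the lowest and highest share of probes above background, 54.1% and 61.4%. What part this had in the members' values was not tested beyond the other scalings given below.

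The probes of paired complex IV isoforms are distinct in sequence, which matters because the largest difference fell on a muscle isoform. The first 30 of the 60 bases of each probe are given for Cox6a1 and Cox6a2, the broad and the muscle form of subunit 6A, and for Cox7a2 and Cox7a1, the broad and the muscle form of subunit 7A. The longest run shared within a pair was 4 bases for subunit 6A and 6 bases for subunit 7A.
Cox6a1 probe: ggaccacgaaaaccctttggatgctaagct
Cox6a2 probe: agcaatcttcaaattggccttctgcacacc
Cox7a2 probe: aactgagctcttctttggggatcaatattt
Cox7a1 probe: acaacgtcctgtacagactgaccatgacgc
In the array's mm9 coordinates the Cox6a1 probe lies at chr5:115795726-115795785 on the minus strand and the Cox6a2 probe at chr7:135349160-135349219 on the minus strand. The Cox7a2 probe lies at chr9:79603227-79603286 on the minus strand. The Cox7a1 probe is placed over chr7:30970337-30970948 on the plus strand, an interval longer than the probe.

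Promoters of nuclear respiratory genes are known for sites of the transcription factors NRF1 and the ETS protein GABP, and these were looked for in the RefSeq promoter windows of GRCm38.p6, which run from 250 bases before to 50 bases after a gene's start. Of the 88 members, 74 had such a window, in 80 entries. The letters GCGCANGCG, of the NRF1 type, stood on either strand in 23 of the 80 (28.7%), against 6.25% of all 32851 promoters. The ETS letters CCGGAAG stood in 21.2% against 8.86%, and the YY1 letters AANATGGCG in 15.0% against 2.38%. The letters TTC and GAA with 4 bases between them, of the type bound by STAT6 downstream of IL-13, stood in 6.25% of member promoters against 6.95% of all promoters. A match is a description of the letters and does not show binding. The 4 windows below are those of Sdha, the flavoprotein subunit of complex II, of the broad isoform gene Cox6a1, of the assembly factor gene Ndufaf4, and of the muscle isoform gene Cox7a1. Capitals mark the NRF1 and ETS letters on either strand.
Sdha promoter: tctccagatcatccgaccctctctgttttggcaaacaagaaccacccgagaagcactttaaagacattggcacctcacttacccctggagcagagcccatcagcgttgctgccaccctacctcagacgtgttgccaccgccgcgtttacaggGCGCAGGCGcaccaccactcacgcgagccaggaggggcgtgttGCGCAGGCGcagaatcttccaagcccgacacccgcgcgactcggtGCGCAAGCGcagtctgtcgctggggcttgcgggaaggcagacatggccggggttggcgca
Cox6a1 promoter: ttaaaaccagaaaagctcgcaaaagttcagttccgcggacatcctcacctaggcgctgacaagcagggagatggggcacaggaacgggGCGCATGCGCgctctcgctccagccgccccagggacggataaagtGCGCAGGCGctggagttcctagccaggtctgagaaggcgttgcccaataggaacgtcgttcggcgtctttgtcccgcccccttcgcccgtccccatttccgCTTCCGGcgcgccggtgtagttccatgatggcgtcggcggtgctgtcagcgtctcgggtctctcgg
Ndufaf4 promoter: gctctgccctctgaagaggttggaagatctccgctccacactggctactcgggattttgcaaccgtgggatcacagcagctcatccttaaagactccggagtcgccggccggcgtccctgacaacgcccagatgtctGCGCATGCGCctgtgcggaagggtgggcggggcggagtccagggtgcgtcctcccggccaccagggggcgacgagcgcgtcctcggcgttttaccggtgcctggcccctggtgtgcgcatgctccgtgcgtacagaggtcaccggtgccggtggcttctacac
Cox7a1 promoter: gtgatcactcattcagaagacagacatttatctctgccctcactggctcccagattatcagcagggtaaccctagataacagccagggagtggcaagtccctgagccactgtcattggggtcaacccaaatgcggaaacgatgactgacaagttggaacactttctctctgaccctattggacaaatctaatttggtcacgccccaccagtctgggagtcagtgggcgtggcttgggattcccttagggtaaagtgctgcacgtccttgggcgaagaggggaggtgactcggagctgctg
The Sdha window, chr13:74350191-74350490 on the minus strand, holds 3 NRF1 matches and no ETS match. The Cox6a1 window, chr5:115348909-115349208 on the minus strand, holds 3 NRF1 matches and 1 ETS match. The Ndufaf4 window, chr4:24897833-24898132 on the plus strand, holds 2 NRF1 matches. Matches that overlap on the opposite strands are counted separately, as in Cox6a1 and Ndufaf4. The Cox7a1 window, chr7:30183921-30184220 on the plus strand, holds none of the 4 sets of letters.

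Levels below are log2 processed signals after each array was shifted so that the 75th percentiles of all arrays were equal, and they compare arrays for a given probe, never probes with each other. Differences are log2 differences fitted by limma over both times, given with the standard error, and adjusted p-values are over all 15459 genes. A gene is called where the adjusted p is under 0.05. The members varied little between arrays. The range over the 8 arrays had a median of 0.45 among the 88, against 0.66 among all genes tested, and Cox6a2 had the widest, 1.54. By group the median range was 0.47 for complex I, 0.64 for its assembly factors, 0.45 for complexes II and III, 0.44 for complex IV and 0.49 for complex V. In each of the 5 comparisons between treatments, 95% intervals lay within 2-fold for at least 87 of the 88 members, with a median half-width of 0.37.

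With IL-13 alone no member was called, where 1.24% of all genes tested were (192 genes). The members nevertheless lay above the control on the whole: 83 of 88 had a fitted difference above 0, with a median of 0.19 against 0.02 over all genes. Of the 88, 11 had an unadjusted p under 0.05, all of them higher with IL-13. Of all 15459 genes 3753 did, 1790 of them higher, so the share at this level and higher was similar in members and all genes. The medians were 0.21 for complex I, 0.40 for its assembly factors, 0.23 for complex II, 0.16 for complex III, 0.17 for complex IV and 0.18 for complex V. All 37 complex I subunits, all 7 assembly factors, all 4 complex II and all 8 complex III subunits were above 0, as were 10 of 14 in complex IV and 14 of 15 in complex V. These counts rest on the brightest probe of each gene, and probes of a gene did not always agree. Among complex I subunits with several passing probes, the span of this difference between probes ran from 0.02 for Ndufs6 to 0.96 for Ndufab1 and 1.27 for Ndufv2.

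**Figure D1:**
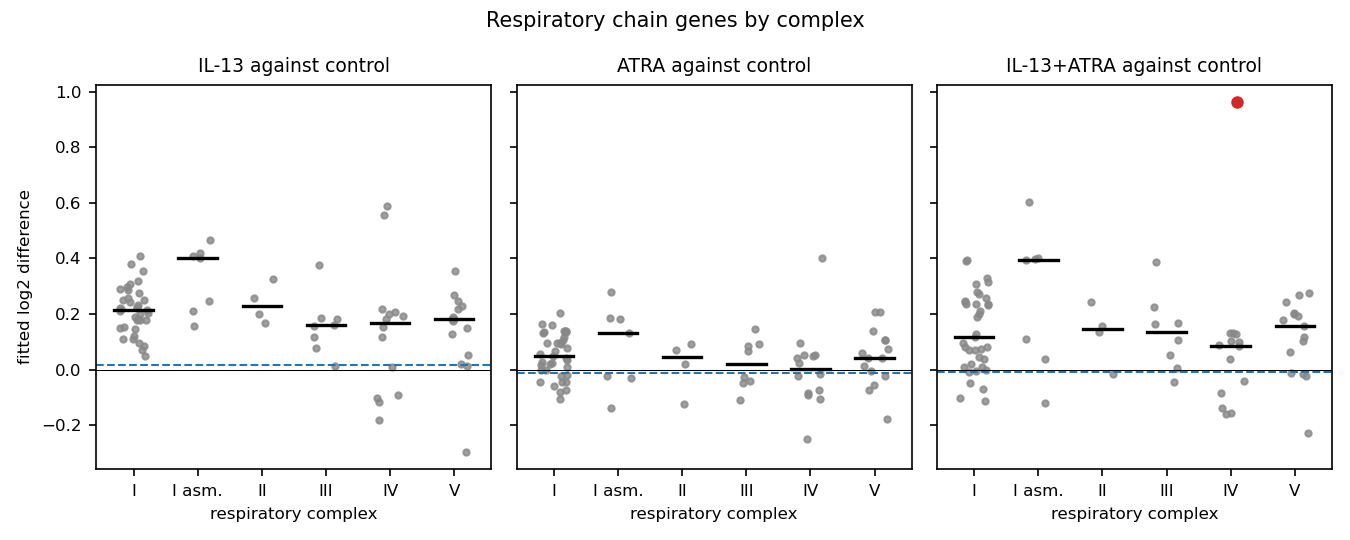
Fitted log2 difference (vertical axis) of each member in 3 comparisons with control, by complex (I asm., complex I assembly factors; the 3 other Atp5 names are left out). Points are genes, black bars the medians of the complex, the dashed line the median of all genes tested, and a red point a gene with adjusted p under 0.05. The only red point is Cox6a2, at 0.96 with IL-13+ATRA.

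How far the members lay above control with IL-13 depended on the time and on the scaling. At 12 h, 87 of 88 members were above control, with a median difference of 0.43. At 24 h 47 were, with a median of 0.00362. On the 12 h slide 60 members had their highest level of all 8 arrays on the IL-13 array and 54 had their lowest on the untreated array, where 17.5% and 22.9% of all genes did. After quantile normalization these counts were 23 and 31, where 13.2% and 22.2% of all genes did. The 24 h IL-13 array then held the highest level of 27 members and of 19.3% of all genes. Quantile normalization, which gives every array the same signal distribution, brought the median at 12 h to 0.16 and that at 24 h to 0.09. After it, 75 of 88 members were above 0 over both times, with a median of 0.11. The authors' deposited value table gave a median of 0.11 as well. Without the 12 h control array the fitted median was 0.07, and without the 12 h IL-13 array it was 0.05. Without the 24 h control array it was 0.31, and without the 24 h IL-13 array 0.36.

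**Figure D2:**
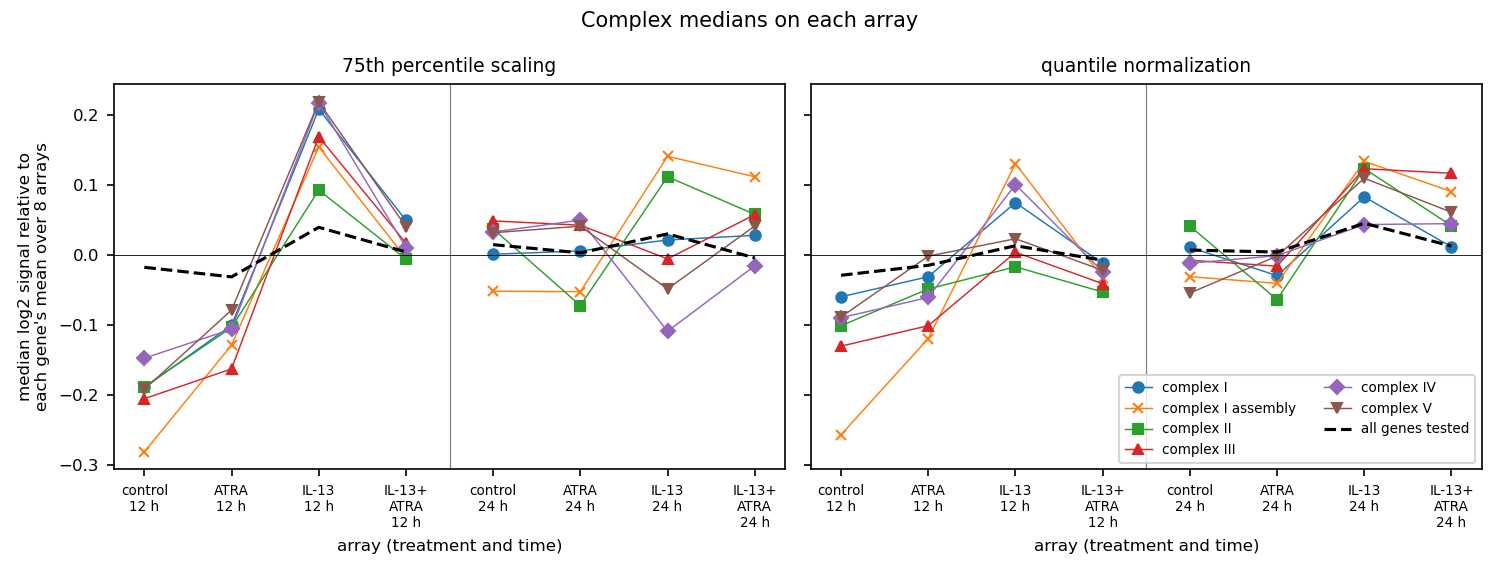
Median log2 signal of each complex on each array, relative to each gene's mean over the 8 arrays (vertical axis), with treatments at 12 h to the left and at 24 h to the right of the grey line; lines join the treatments of a slide, and the dashed line is the median of all genes tested. With 75th percentile scaling the median of all 88 members was −0.19 on the 12 h control array and 0.20 on the 12 h IL-13 array, and with quantile normalization these were −0.09 and 0.05.

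With IL-13, 47 of 88 members (53.4%) were above control at both 12 h and 24 h and 1 was below at both, where 36.9% and 32.2% of all genes were. After quantile normalization 55 members (62.5%) were above at both times and 5 below, where 37.8% and 31% of all genes were. These shares are descriptions, since genes on an array are not independent.

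**Figure D3:**
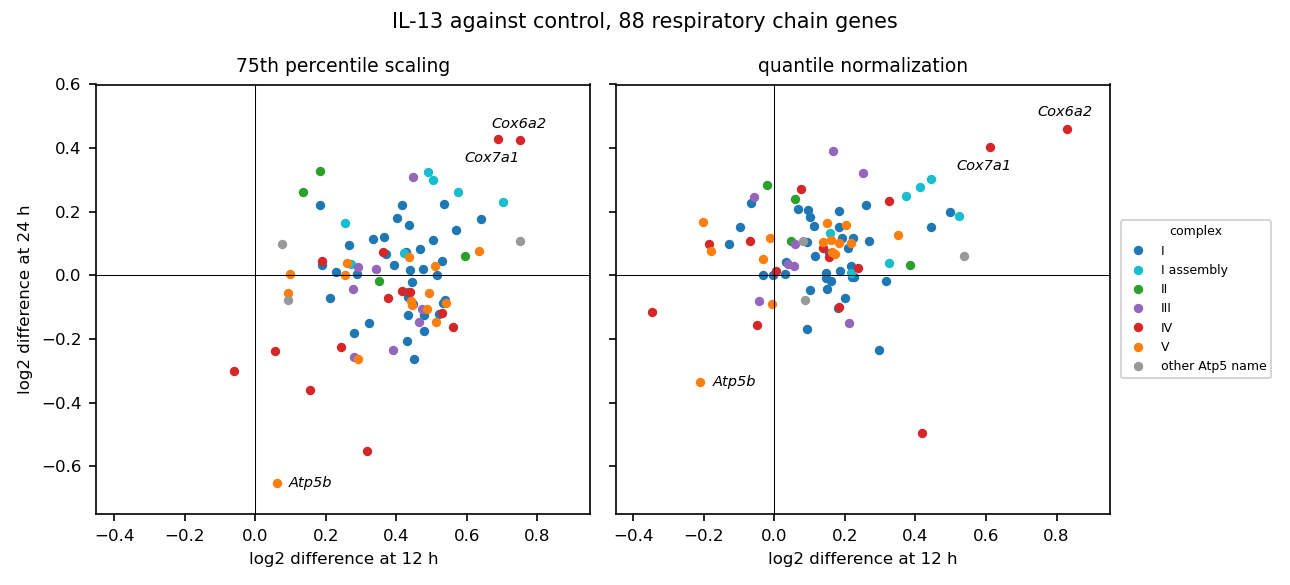
Log2 difference of IL-13 from control at 12 h (horizontal axis) and 24 h (vertical axis) for the 88 members, coloured by complex, with 75th percentile scaling (left) and quantile normalization (right). On the left all points but Cox8a lie to the right of 0 at 12 h, and on the right the cloud moves towards 0; Cox6a2 and Cox7a1 lie at the upper right in both panels.

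In complex I, Ndufs8, an iron-sulfur subunit of the arm that faces the matrix, had the highest difference among the structural subunits with IL-13. The Ndufs8 level was 12.81 untreated, 13.08 with ATRA, 13.45 with IL-13 and 13.39 with both agents at 12 h, and 13.13, 13.15, 13.31 and 13.33 in the same order at 24 h. The IL-13 arrays were above the untreated array of their time, by 0.64 at 12 h and 0.18 at 24 h, and the groups did not overlap. The fitted difference was 0.41 ± 0.15 (adjusted p = 0.181). Other catalytic subunits were closer to control. Ndufs1, the largest iron-sulfur subunit, differed by 0.20 with IL-13 (adjusted p = 0.510), Ndufv1, which binds FMN, by 0.12 (adjusted p = 0.520) and Ndufs7 by 0.11 (adjusted p = 0.530). Ndufa4, named as a complex I subunit and since assigned to complex IV, differed by 0.45 at 12 h and −0.09 at 24 h.

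The assembly factors, which build complex I without being part of it, had the highest median of the groups. With IL-13 all 7 were above control at 12 h and all 7 at 24 h, with medians of 0.49 and 0.23, and after quantile normalization these medians were 0.37 and 0.19. Of the 7, 4 had an unadjusted p under 0.05 (Ndufaf2, Ndufaf4, Ndufaf5 and Ndufaf6), where 3753 of all 15459 genes did, 1790 of them higher. None of the 7 was called: the adjusted p-values of these 4 ran from 0.143 for Ndufaf6 to 0.175 for Ndufaf5. The Ndufaf4 level was 12.78 untreated, 13.14 with ATRA, 13.35 with IL-13 and 13.54 with both agents at 12 h, and 13.03, 13.23, 13.30 and 13.48 in the same order at 24 h. The order of the 4 treatments was thus the same at both times, with untreated cells lowest and cells given both agents highest. Ndufaf4 differed by 0.42 ± 0.13 with IL-13 (adjusted p = 0.150), by 0.28 with ATRA (adjusted p = 0.404) and by 0.60 with both (adjusted p = 0.0503). The last value falls just short of the threshold and passed it under 5 other settings, among them median scaling and a robust fit. A second Ndufaf4 probe was 0.26 above control with IL-13 and 0.26 with ATRA, and another, dim probe differed by 0.07 and 0.13. With both agents these probes differed by 0.44 and −0.02.

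In complex II, which is also the succinate dehydrogenase of the citric acid cycle, the 4 subunits differed from control by 0.20 (Sdha), 0.33 (Sdhb), 0.26 (Sdhc) and 0.17 (Sdhd) with IL-13, with adjusted p from 0.244 to 0.439. Sdhc, a membrane anchor, had levels of 13.00 untreated, 12.94 with ATRA, 13.18 with IL-13 and 13.01 with both at 12 h, and 13.14, 12.95, 13.47 and 13.09 at 24 h. IL-13 alone was the highest Sdhc array at each time, and the arrays with ATRA added were near or below control. In Sdha 3 probes were measured, and the dimmest was below control with IL-13 by 0.28 while the other 2 were above, so probes of Sdha did not agree.

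In complex III the largest difference with IL-13 was that of Uqcrc1, a core subunit, at 0.38 ± 0.14 (adjusted p = 0.194). Its level was 14.91 untreated, 14.94 with ATRA, 15.36 with IL-13 and 15.16 with both at 12 h, and 15.00, 15.26, 15.31 and 15.52 at 24 h. IL-13 arrays were above the untreated arrays at both times. The second core subunit, Uqcrc2, differed by 0.18 (adjusted p = 0.381) and the Rieske iron-sulfur protein, Uqcrfs1, by 0.16 (adjusted p = 0.412).

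Complex IV held the member that varied most, Cox6a2, the heart and skeletal muscle form of subunit 6A. It was the only member called in any comparison. Its level at 12 h was 7.53 untreated, 7.79 with ATRA, 8.28 with IL-13 and 8.44 with both agents. At 24 h it was 6.90, 7.43, 7.32 and 7.91 in the same order. At each time the untreated array was the lowest and the array with both agents the highest, although the 12 h untreated array (7.53) was above the 24 h ATRA and IL-13 arrays. With both agents Cox6a2 rose by 0.96 ± 0.17 against control (limma, adjusted p = 0.0324), by 0.91 at 12 h and 1.02 at 24 h, in a comparison where 8.41% of all genes were called and 3.21% were called higher. The 1 of 88 members is a smaller share, 1.14%, than either background. The arrays with both agents did not overlap with the untreated arrays.

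The Cox6a2 call rested on few arrays. The adjusted p ranged from 0.00954 to 0.181 over the alternatives and kept its side of the threshold in 10 of 18. Without the filter on dim probes it was 0.158, and without the time term 0.178. Leaving out either array of control, ATRA or IL-13 with ATRA ended the call, with adjusted p between 0.0535 and 0.181, while the difference itself stayed between 0.90 and 1.03. With IL-13 alone Cox6a2 was 0.59 ± 0.17 above control (adjusted p = 0.137) and with ATRA alone 0.40 ± 0.17 (adjusted p = 0.358). The departure from additivity was −0.03 (adjusted p = 1.0). Cox6a2 was also lower on the 24 h arrays than on the 12 h arrays by 0.62 on the log2 scale in the fit (adjusted p = 0.315). The muscle markers Ckm and Myh6 were not above background on any array.

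Cox7a1, the muscle form of subunit 7A, was highest on the IL-13 arrays. Its level was 10.66 untreated, 10.68 with ATRA, 11.34 with IL-13 and 10.97 with both agents at 12 h, and 10.84, 10.60, 11.27 and 10.70 in the same order at 24 h. Both IL-13 arrays were above the other 6. The fitted difference of IL-13 from control was 0.56 ± 0.14 (adjusted p = 0.120), and that of both agents from IL-13 alone was −0.47 ± 0.14 (adjusted p = 0.166), so neither was called. Among the 88 this was the largest difference below 0 when ATRA was added to IL-13, and it remained −0.35 at 12 h and −0.57 at 24 h after quantile normalization. Against control Cox7a1 differed by 0.09 with both agents (adjusted p = 0.718).

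**Figure D4:**
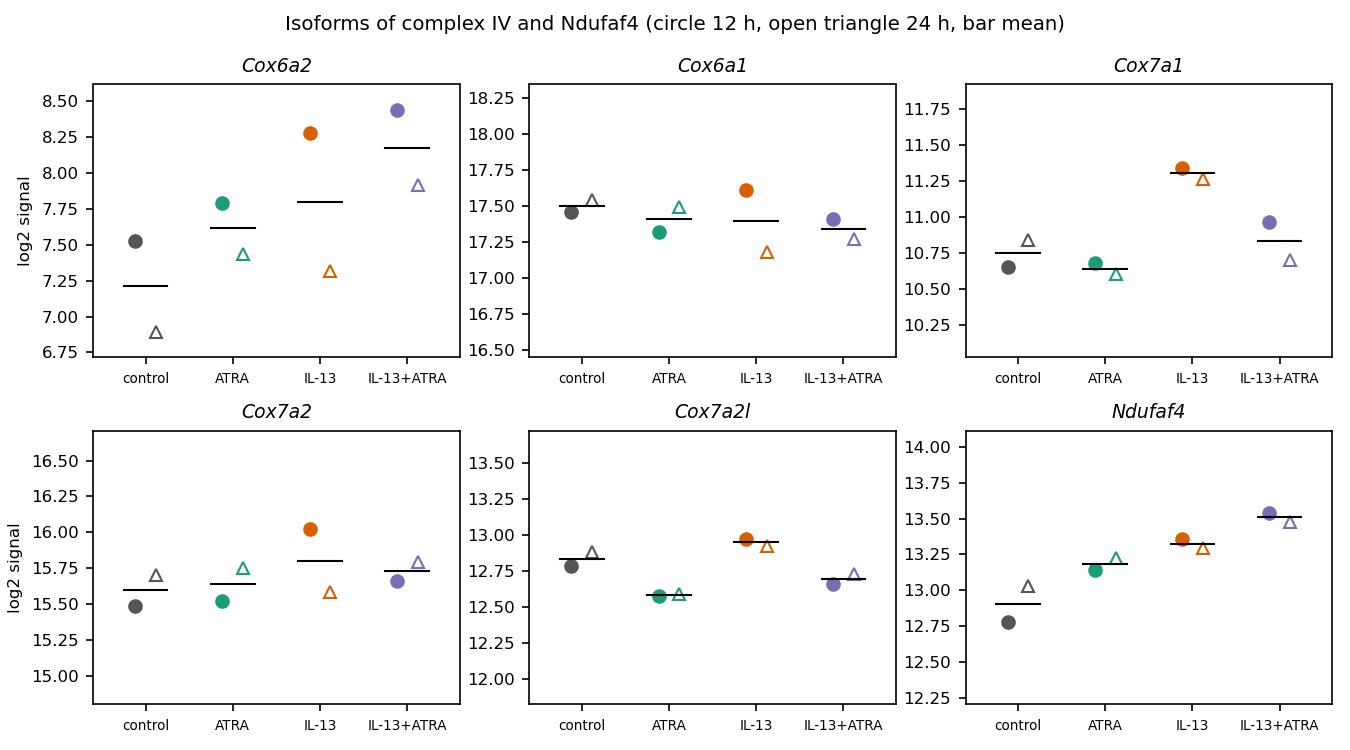
Log2 signal (vertical axis, the same span of 1.9 in each panel) of 5 complex IV genes and Ndufaf4 by treatment; circles are the 12 h arrays, open triangles the 24 h arrays and bars the mean of both. Cox6a2 runs from 6.90 to 8.44, Cox7a1 is highest on both IL-13 arrays, and Cox7a2l is lowest on both ATRA arrays.

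The differences of the broad counterparts were not tested against those of the muscle forms. Cox6a1 differed from control by −0.10 with IL-13 (adjusted p = 0.727) and by −0.16 with both agents. The sign of Cox6a1 with IL-13 turned with the scaling: after quantile normalization it was 0.02 over both times, and 0.11 at 24 h in place of −0.36. Cox7a2 differed by 0.21 with IL-13 (adjusted p = 0.522) and by 0.13 with both agents, where Cox7a1 differed by 0.09. Cox4i1, the broad form of subunit 4, differed from control by 0.56 with IL-13 at 12 h and by −0.16 at 24 h, and after quantile normalization by 0.33 and 0.24, so its direction at 24 h turned with the scaling. Cox5a, Cox5b and Cox6b1 differed by −0.09, 0.15 and 0.22 with IL-13. Cox8a, the broad form of subunit 8, differed by −0.18 with IL-13 (adjusted p = 0.404) and was the only member below control at 12 h with 75th percentile scaling. Cox6b2, the testis form of subunit 6B, differed by 0.32 at 12 h and −0.55 at 24 h. Cox7a2l, which takes part in joining complexes into supercomplexes, had levels of 12.79 untreated, 12.58 with ATRA, 12.98 with IL-13 and 12.66 with both at 12 h, and 12.88, 12.59, 12.92 and 12.73 at 24 h. The 4 arrays with ATRA were below the 4 without it. Cox7a2l differed from control by −0.25 ± 0.11 with ATRA (adjusted p = 0.368), the lowest of the 88, and from IL-13 alone by −0.25 when ATRA was added (adjusted p = 0.278).

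The 4 names that did not enter the test are all tissue-restricted isoforms of complex IV. Cox7b2 and Cox8b were above background on no array, and Cox8c on 2 arrays. Cox4i2, the form of subunit 4 known from lung and from low oxygen, was above background only on the 12 h IL-13 array, at 6.81, where the other 7 arrays read 0.73 to 1.93. The 24 h IL-13 array read 1.76, so the value had no second array behind it.

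In complex V the catalytic subunit Atp5b was the lowest of the 88 with IL-13, with ATRA second lowest, and with both agents lowest again. Its level was 16.67 untreated, 16.46 with ATRA, 16.73 with IL-13 and 16.60 with both at 12 h, and 16.87, 16.72, 16.22 and 16.48 at 24 h. The 24 h IL-13 array was the lowest of the 8. The fitted differences were −0.30 ± 0.21 with IL-13 (adjusted p = 0.405) and −0.18 with ATRA (adjusted p = 0.780). The other 3 Atp5b probes were above control with IL-13, by 0.10, 0.08 and 0.24, so the brightest probe alone carries the negative sign. Atp5a1, the other subunit of the catalytic head, differed by 0.22, the central stalk subunit Atp5c1 by 0.18 and the peripheral stalk subunit Atp5o by 0.13. Of the 3 genes for the same c-ring protein, Atp5g1 differed by 0.25, Atp5g2 by 0.05 and Atp5g3 by 0.01.

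With ATRA alone no member was called, where 1.77% of all genes tested were (274 genes), and no member had an unadjusted p under 0.05, where 2330 of all genes did. The median was 0.04 against −0.01 over all genes, and the complex medians ran from 0.00298 for complex IV to 0.13 for the complex I assembly factors. The highest were Cox6a2 at 0.40, Ndufaf4 at 0.28 and Atp5o at 0.21, and the lowest Cox7a2l at −0.25, Atp5b at −0.18 and the assembly factor Ndufaf3 at −0.14. Above control at both times were 41 members (46.6%), against 30.1% of all genes, and below at both were 14 (15.9%), against 35%. After quantile normalization the members' median was 0.03, with 34 members (38.6%) above at both times, against 31.5% of all genes, and 22 (25%) below at both, against 31.9%.

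With both agents the members' median against control was 0.12, against −0.01 over all genes, and 69 of 88 were above 0. At 12 h the median was 0.25 and at 24 h 0.02. Above control at both times were 45 members (51.1%), against 34.3% of all genes. After quantile normalization the median was 0.07, 57 of 88 were above 0, and 41 (46.6%) were above at both times, against 35.1% of all genes. The median of complex I went from 0.12 to 0.02. Without the 12 h control array the members' median was −0.00622, and without the 24 h control array it was 0.25. After Cox6a2 and Ndufaf4 the highest were the assembly factors Ndufaf2 at 0.40, Ndufaf5 at 0.40 and Ndufaf6 at 0.40, with adjusted p between 0.103 and 0.161. Next came Ndufa8, an accessory subunit of complex I, at 0.39, Ndufs8 at 0.39 and Uqcrc1 at 0.39. The lowest were Atp5b at −0.23, Cox6a1 at −0.16 and Cox6b2 at −0.16. The comparisons with control share the same untreated arrays, so their values are given side by side and are not independent of each other.

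With ATRA added to IL-13, no member was called, where 2.59% of all genes were (401 genes). The median was −0.06 against −0.02 over all genes, at −0.16 for 12 h and 0.02 for 24 h. Cox7a1 at −0.47, Ndufa7, an accessory complex I subunit, at −0.32, and Ndufs1 at −0.30 were lowest, and Cox6a2 at 0.37, Ndufv3 at 0.22 and Ndufaf4 at 0.18 were highest. Ndufs1 rested on the 24 h arrays, with 0.02 at 12 h and −0.63 at 24 h. Below IL-13 at both times were 32 members (36.4%), against 35.3% of all genes. Quantile normalization put the members' medians at −0.05 (12 h) and −0.04 (24 h), and 42 members (47.7%) were below at both times, against 35.1% of all genes.

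When IL-13 was added to ATRA, no member was called, where 0.356% of all genes were (55 genes). The median was 0.09 against 0.01, and 49 members (55.7%) were above ATRA alone at both times, against 36.2% of all genes, while 3 (3.41%) were below at both, against 33.1%. After quantile normalization the median was 0.05, with 39 members (44.3%) above at both times and 12 (13.6%) below, against 34.9% and 33.7% of all genes. Cox6a2 at 0.56 ± 0.17 (adjusted p = 0.283), Ndufaf4 at 0.32 ± 0.13 (adjusted p = 0.378) and Ndufaf5 at 0.27 were highest. Ndufs1 at −0.10, Cox8a at −0.09 and Cox6b2 at −0.08 were lowest.

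The departure of the combined treatment from the sum of both agents was called for no member and for 0.0194% of all genes (3 genes). The median of this term was −0.11 among the members, −0.23 at 12 h and 0.04 at 24 h, and 35 members (39.8%) were below 0 at both times, against 28.7% of all genes. With quantile normalization the median was −0.07, at −0.10 for 12 h and −0.00889 for 24 h, and 39 members (44.3%) were below 0 at both times, against 29.6% of all genes. The lowest were Ndufa7 at −0.40, Cox7a1 at −0.36 and Ndufs1 at −0.30, and the highest Atp5b at 0.25, Cox6c at 0.17 and Atp5g3 at 0.09, all with adjusted p = 1.0.

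Between 24 h and 12 h no member was called and 0% of all genes were, with 3 members and 1875 of all genes at an unadjusted p under 0.05 in limma. After Cox6a2 the lowest were Ndufv3 at −0.19 and Ndufb10 at −0.12, and the highest were Uqcrfs1 at 0.23, Ndufaf6 at 0.22 and Uqcrc1 at 0.18. Whether the IL-13 difference changed with time was tested in a model with 1 residual degree of freedom. The difference in that model is averaged over cells with and without ATRA. This term called 0% of all genes. For it 4 members had an unadjusted p under 0.05 in limma, all with a lower signed difference at 24 h than at 12 h. They were Atp5b at −0.55, Atp5c1 at −0.51, the complex IV subunit Cox7c at −0.50 and the complex III subunit Uqcrb. Lower is meant by sign and not by size. Atp5b with IL-13 alone was 16.73 against 16.67 untreated at 12 h, and 16.22 against 16.87 at 24 h. Sdha at 0.19, Sdhc at 0.11 and Atp5s at 0.10 were highest in that term. The corresponding term for ATRA, averaged over cells with and without IL-13, called 0% of all genes and no member passed an unadjusted p of 0.05. It was highest for Atp5o at 0.40, Cox5a at 0.37 and Cox6a2 at 0.36, and lowest for Ndufs1 at −0.42, Cox7a1 at −0.22 and Sdhc at −0.17.

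Other mitochondrial genes gave a frame for these values. None of the 13 subunits encoded by mitochondrial DNA had a probe by name. The 76 proteins of the mitochondrial ribosome, which translates those subunits, were all above control with IL-13, with a median of 0.30 and none called. After quantile normalization 73 were above 0, with a median of 0.19. With both agents 4 of the 76 rose: Mrpl34 by 0.56, Mrpl4 by 0.65, Mrpl47 by 0.75 and Mrps27 by 0.76 (adjusted p from 0.0289 to 0.0428), in the comparison where 3.21% of all genes were called higher. After quantile normalization 3 of the 76 were called. Of 33 assembly factors for complexes I to V outside the name rule, none was called with IL-13, and with both agents Timmdc1, a complex I assembly factor, fell by 0.77 on the log2 scale (adjusted p = 0.0288). Among 14 carriers and membrane proteins, 2 rose with both agents: Tomm40, the pore of the outer membrane, by 0.75 (adjusted p = 0.0194) and Timm23, the pore of the inner membrane, by 0.66 (adjusted p = 0.0350). No gene among 17 of the citric acid cycle or 12 of fatty acid oxidation was called in any of these comparisons, and 1 of 15 glycolytic genes was: Hk1, which phosphorylates glucose, fell by 1.03 with both agents (adjusted p = 0.0137). The IL-13 medians were 0.23 for the citric acid cycle, 0.26 for fatty acid oxidation, 0.24 for the carriers and membrane proteins and 0.26 for the 33 assembly factors. That of the members was 0.19 and that of glycolysis −0.03. A shift of this size was thus not particular to the respiratory chain. Of 15 tested regulators of mitochondrial biogenesis, the transcription factor gene Myc was the only one called, rising by 1.33 with IL-13 (adjusted p = 0.0499) and falling with ATRA (−2.94, adjusted p = 0.00892). It also fell when ATRA was added to IL-13 (−1.83, adjusted p = 0.0201) and rose by 2.44 when IL-13 was added to ATRA (adjusted p = 0.0228). The coactivator Ppargc1b differed by 0.02 with IL-13, and the mitochondrial DNA factor Tfam by 0.19. The electron carrier gene Cycs, cytochrome c, differed by 0.13 with IL-13, and Cyc1, the cytochrome c1 subunit of complex III that lies outside the name rule, by 0.28.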

How the data were processed

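RNA was measured on 8 one-colour Agilent arrays (Cy3 label, design 014868). Per the file headers, Feature Extraction 10.7.1.1 made the deposited intensity values, and the processed signal used here is already background-subtracted by the authors' software. The authors also deposited a value table on the log2 scale, whose ranks matched those of each array's processed signals (lowest Spearman correlation 0.9999963); how it was scaled is not given in the sources used here. The detection and saturation calls, of unit other, came with the deposited intensity files. Depth of reads does not apply to arrays, and their number limits the precision.

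Control spots and outlier-flagged values were left out, spots of a probe were averaged, and log2 processed signals were shifted to a common 75th percentile. limma 3.58.1 in R 4.3.3 fitted treatment and time over all 15459 genes and all 8 arrays, with 3 residual degrees of freedom, and p-values were adjusted by the Benjamini-Hochberg method over all genes. A second model with IL-13 by time and ATRA by time terms had 1 residual degree of freedom. The fit was tested on simulated data. Time served as the block, since each treatment has 1 array per time, and its numbers come from the labels' times. Alternatives were median scaling, quantile normalization, normexp correction with an offset of 50 and quantile normalization, the deposited table, other filters on dim probes, the mean of a gene's probes, RefSeq names, trend and robust variance, no time term, and leaving out each array.

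Genes named are called members, the 3 highest and 3 lowest in each comparison, a fixed list of core and isoform genes, and names that failed the filter. Called genes of the other mitochondrial and metabolic lists are named too. Of the cell markers and the genes that respond to the agents only some are named, and other genes of these lists were also called. The values of 1 gene of the fixed list are not reported here. The members and lists were chosen with earlier results of these data known. Probe coordinates are mm9, per the file headers, and promoter windows are RefSeq's, for GRCm38.p6. Genome sequence and protein sequences were not used here.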

Additional observations from a re-analysis of the deposited data

Results flagged for a closer look

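Medians of several complexes had opposite signs at 12 h and 24 h, each time being 1 array against 1, so this difference between the times was not tested at the level of a complex. The term for IL-13 by time called 0 members and 0 genes in limma, with 4 members and 1526 genes at an unadjusted p under 0.05. That term averages the IL-13 difference over cells with and without ATRA, so it is not a test of IL-13 alone against control.

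For IL-13 against control, complex III had a median of 0.37 on the 12 h slide and −0.0743 on the 24 h slide. Complex IV had 0.37 and −0.0954, and complex V 0.44 and −0.0551. After quantile normalization the same medians were 0.06 and 0.07 for complex III, 0.15 and 0.07 for complex IV, and 0.15 and 0.10 for complex V, so the opposite signs were seen with 75th percentile scaling and not with this one. With ATRA against control the medians were 0.12 and −0.0473 for complex II and 0.0384 and −0.00895 for complex V. After quantile normalization these were 0.07 and −0.07 for complex II and 0.0185 and 0.00024 for complex V. With both agents against control complex IV had medians of 0.19 and −0.0610, and after quantile normalization 0.06 and 0.02. When ATRA was added to IL-13, the median of all 88 members was −0.16 at 12 h and 0.0212 at 24 h. In that comparison complex III had −0.13 and 0.11, complex IV −0.21 and 0.11, and complex V −0.16 and 0.12. After quantile normalization the 88 members had −0.05 and −0.04 and complex IV −0.0361 and −0.00418, so their opposite signs were not seen with this scaling. Complex III then had −0.0222 and 0.0413, and complex V −0.0286 and 0.0312.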

How the results depend on the processing

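With 2 arrays per treatment, 3 residual degrees of freedom and 1 cell line, small differences could not be resolved, and time and slide cannot be told apart. The count of members called stayed at 0 under every alternative run in each comparison other than both agents against control. There it was 1, and it became 3 with median scaling (Cox6a2, Ndufaf4 and Ndufaf6), 2 with normexp and quantile normalization (Cox6a2 and Ndufaf4), 0 with no filter on dim probes, 2 with probes well above background on all 8 arrays (Cox6a2 and Ndufaf4) and 3 with trend and robust variance (Cox6a2, Ndufaf4 and Ndufaf6). Leaving out each array gave 0 to 1. Without the replicate block, the time term, it was 1, but the gene was Ndufaf4 (adjusted p = 0.0444) in place of Cox6a2; it changed no other count.

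Median scaling moved the members' median to 0.17 for ATRA against control, to 0.32 for both agents against control and to 0.17 for both agents against ATRA, while the median of all genes moved to 0.11, 0.19 and 0.09. With IL-13 the members' median was 0.37 under median scaling, against 0.20 for all genes, 0.11 after quantile normalization and 0.09 after normexp with quantile normalization. Leaving out each array gave medians from −0.0653 to 0.17 for ATRA against control, from −0.22 to 0.11 for both agents against IL-13 and from −0.0220 to 0.11 for 24 h against 12 h. They ran from 0.0477 to 0.36 for IL-13 against control, from −0.00622 to 0.25 for both agents against control, from 0.03 to 0.14 for both agents against ATRA and from −0.25 to 0.05 for the departure from additivity. The last was above 0 without the 12 h control array (0.00663) and without the 12 h IL-13 array (0.05), and lowest without the 24 h IL-13 array, with −0.22 without the 24 h control array and −0.0376 without the 24 h ATRA array. In both agents against ATRA the extremes were without the 12 h ATRA array and without the 24 h ATRA array. In ATRA against control the lowest was without the 12 h control array and the highest without the 24 h control array. In both agents against IL-13 the highest was without the 12 h IL-13 array and the lowest without the 24 h IL-13 array. In 24 h against 12 h leaving out either control array gave the lowest value and leaving out either IL-13 array the highest. Leaving out arrays means fewer samples; the cause of the other moves was not tested.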
